A study of Hordeum vulgare with 22 samples.

Results

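SOC1-1 (HORVU1Hr1G051660) and FPF1 (HORVU2Hr1G007350) are 2 of the 24318 barley genes in the deposited expression table, and their transcripts were followed over 2 lines and 3 stages of spike development. Both were chosen by gene identifier, with their line differences in these libraries already known. The values that chose them are therefore given as a description, without a test. Both passed the filter on low counts, as did 21132 genes in all.

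RNA was sequenced from young barley (Hordeum vulgare) inflorescences of cultivar Bowman, the wild type, and of mnd1.a, a line near-isogenic to Bowman that carries the mnd1.a allele of the many-noded dwarf gene MND1. All plants shared the Bowman background and grew in long days of 16 h of light at 22 °C and 8 h of dark at 18 °C, and tissue was taken around midday. Stages follow the Waddington scale of spike development. W2.0 is the double ridge stage, stamen primordia form at W3.5, and W5.0 is the awn primordium stage. Bowman had 3, 4 and 4 libraries at these stages and mnd1.a had 3, 3 and 4. Each piece of tissue also held the inflorescence base and the small leaves under it, and the labels do not say how many plants went into a library or whether libraries came from separate plants. The spread between libraries may therefore be technical, and in such bulk tissue fewer cells of a type and less RNA per cell cannot be told apart.

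SOC1 is known from Arabidopsis as a MADS-box transcription factor that gathers signals from day length, cold, age and gibberellin at the shoot apex, and that activates the meristem identity gene LEAFY. SOC1-1 carries the annotation MADS-box transcription factor 56, the name of a SOC1-type gene of rice. FPF1 is a small protein described in mustard and Arabidopsis, where it appears in the apical meristem soon after floral induction, and where its overexpression hastens flowering and has been linked to the gibberellin response. In barley, MND1 encodes a protein of the N-acyltransferase family, and its mutants form leaves at a faster pace and have more stem nodes.

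In the table's own coordinates SOC1-1 spans 10604 bases of chromosome 1H, from 383207142 to 383217745. FPF1 spans 858 bases of chromosome 2H, from 14998609 to 14999466. No other transcript in the table had counts identical to either. Levels are given as CPM, counts scaled to a common library total, which takes no account of transcript length, so levels are compared between libraries and not between genes.

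Both genes were in the lower part of the range of expression. Averaged over 21 libraries SOC1-1 stood at 4.69 CPM, and 33.2% of the tested genes had a lower average. FPF1 stood at 6.67 CPM, above 39.3% of the tested genes. Estimated counts ran from 15.6 to 234 for SOC1-1 and from 8.42 to 352 for FPF1. Counting error alone gives a standard deviation of 25.3% of the value at the lowest SOC1-1 count and 34.5% at the lowest FPF1 count, against 6.54% and 5.33% at the highest. The lowest counts were in Bowman at W2.0 and, for mnd1.a, at W3.5.

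At W2.0 both transcripts were scarce in Bowman. SOC1-1 measured 1.25, 1.09 and 1.27 CPM in the 3 Bowman libraries and 1.49, 2.03 and 1.95 CPM in the 3 mnd1.a libraries. FPF1 measured 1.25, 0.545 and 0.999 CPM in Bowman and 2.57, 2.50 and 3.77 CPM in mnd1.a. For both genes every mnd1.a library lay above every Bowman library. In the fitted model mnd1.a was 1.52-fold Bowman for SOC1-1, a log2 fold change of 0.60 ± 0.50 (SE, as throughout for fitted differences), and 3.19-fold for FPF1, a log2 fold change of 1.67 ± 0.56. Of all tested genes, 9.5% had every mnd1.a library above every Bowman one at this stage, and 0.79% were called different between the lines by edgeR's quasi-likelihood test at an adjusted p under 0.05. FPF1 was among the genes with the larger differences, with 239 genes having a higher log2 fold change, against 1191 for SOC1-1.

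At W3.5 the order of the lines was the opposite. SOC1-1 measured 1.85, 5.56, 3.06 and 10.3 CPM in Bowman libraries 1 to 4 and 1.21, 1.35 and 1.46 CPM in mnd1.a. FPF1 measured 3.32, 7.05, 4.01 and 15.1 CPM in Bowman and 0.924, 1.67 and 1.83 CPM in mnd1.a. Every mnd1.a library lay below every Bowman library for both genes, although the lowest Bowman library came close to the mutant range for SOC1-1. The fitted level in Bowman was 3.77-fold that in mnd1.a for SOC1-1, a log2 fold change of -1.91 ± 0.44, and 4.87-fold for FPF1, a log2 fold change of -2.28 ± 0.48. Every mnd1.a library was below every Bowman one for 6.89% of the tested genes, and 3.91% were called different. Lower log2 fold changes were found for 297 genes than for SOC1-1 and for 215 than for FPF1.

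The 4 Bowman libraries at W3.5 spread widely, and the size of the difference at this stage rested in part on 1 of them. Library 4 was the highest for both genes, and without it the log2 fold change was -1.35 for SOC1-1 and -1.67 for FPF1. Leaving out libraries 2 and 4 together, an alternative that removes both high libraries, gave -0.88 and -1.31. As every Bowman library lay above every mnd1.a library beforehand, leaving libraries out could not make the lines overlap.

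At W5.0 both genes were again lower in mnd1.a. SOC1-1 measured 9.58, 11.4, 6.98 and 14.8 CPM in Bowman and 5.69, 3.71, 6.43 and 6.00 CPM in mnd1.a. FPF1 measured 11.7, 22.4, 11.4 and 22.3 CPM in Bowman and 6.51, 7.41, 5.15 and 7.64 CPM in mnd1.a. The groups did not overlap, and the nearest libraries were Bowman library 3 and mnd1.a library 3 for SOC1-1. Bowman was fitted at 1.96-fold mnd1.a for SOC1-1, a log2 fold change of -0.97 ± 0.35, and 2.53-fold for FPF1, a log2 fold change of -1.34 ± 0.38. At this stage 16.3% of the tested genes had every mnd1.a library below every Bowman one, and 30.2% were called different between the lines. The lines' library codes differ in their prefix at this stage and share it at each earlier one, so whatever the prefix stands for and the line cannot be told apart at W5.0.

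**Figure D1:**
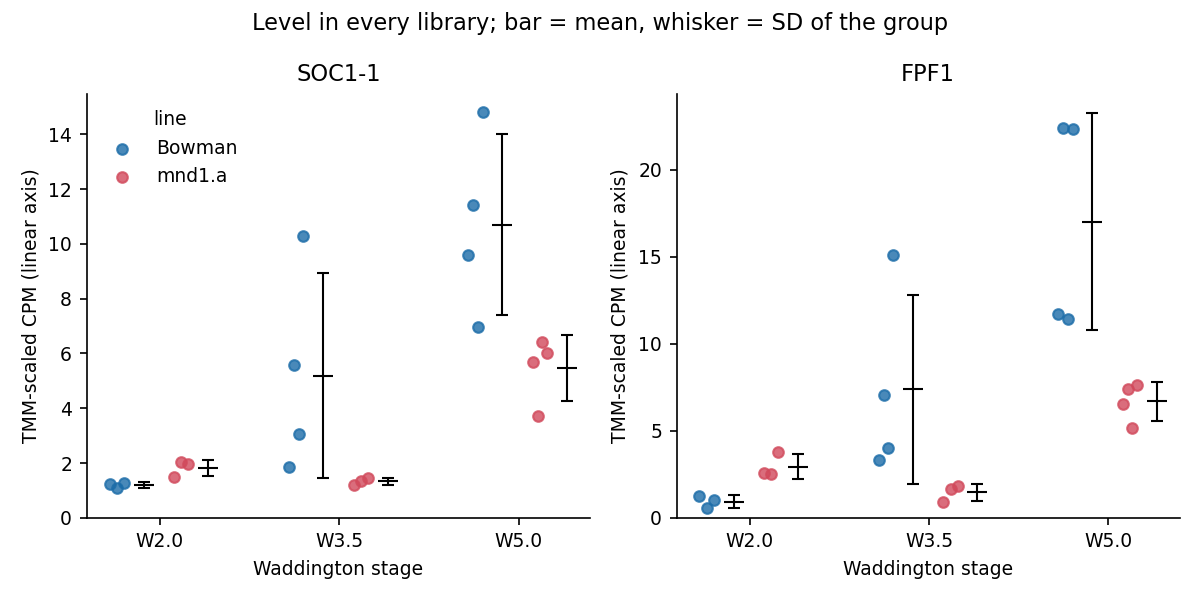
Level of SOC1-1 and FPF1 (vertical axis, TMM-scaled CPM) in each of the 21 libraries by Waddington stage, with Bowman in blue and mnd1.a in red; each point is a library, bars are group means and whiskers the SD. In both panels the mnd1.a points lie above the Bowman points at W2.0 and below them at W3.5 and W5.0, and the Bowman points at W3.5 spread from 1.85 to 10.3 CPM for SOC1-1 and from 3.32 to 15.1 CPM for FPF1.

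Followed through development within Bowman, both transcripts had higher means at each later stage. SOC1-1 averaged 1.20 ± 0.0965 (SD, n = 3), 5.19 ± 3.73 (n = 4) and 10.7 ± 3.31 (n = 4) CPM over the 3 stages. FPF1 averaged 0.930 ± 0.356 (n = 3), 7.37 ± 5.40 (n = 4) and 17.0 ± 6.23 (n = 4) CPM. Over the whole span the fitted change was 8.86-fold for SOC1-1 and 18.1-fold for FPF1. From W2.0 to W3.5 the log2 fold change was 2.08 ± 0.45 for SOC1-1 and 2.96 ± 0.51 for FPF1, with every W3.5 library above every W2.0 library, as held for 14.6% of the tested genes. From W3.5 to W5.0 it was 1.07 ± 0.35 and 1.22 ± 0.37, and the libraries of these stages overlapped for both genes. Without Bowman W3.5 library 4 the split between the steps was different, with 1.5 and 1.64 for SOC1-1 and 2.34 and 1.84 for FPF1.

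In mnd1.a the mean of each transcript was lower at W3.5 than at W2.0 and highest at W5.0. SOC1-1 averaged 1.82 ± 0.289 (n = 3), 1.34 ± 0.128 (n = 3) and 5.46 ± 1.21 (n = 4) CPM, and FPF1 averaged 2.94 ± 0.716 (n = 3), 1.47 ± 0.483 (n = 3) and 6.68 ± 1.13 (n = 4) CPM. The W3.5 libraries all lay below the W2.0 libraries of the same line, by a log2 fold change of -0.44 ± 0.49 for SOC1-1 and -1.0 ± 0.52 for FPF1. The same direction without overlap was found for 16.3% of the tested genes. For SOC1-1 the step from W2.0 to W3.5 was smaller than its SE. From W3.5 to W5.0 every library lay above, by 2.01 ± 0.44 for SOC1-1 and 2.17 ± 0.48 for FPF1, as for 14.9% of the tested genes. The span from W2.0 to W5.0 was 2.97-fold for SOC1-1 and 2.24-fold for FPF1. The prefix of the library codes also changes between W2.0 and W3.5 in both lines and between W3.5 and W5.0 in mnd1.a, so prefix and stage cannot be told apart in those steps.

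From W2.0 to W3.5 the line difference moved by -2.52 ± 0.66 for SOC1-1 and by -3.96 ± 0.73 for FPF1 on the log2 scale. From W3.5 to W5.0 it moved by 0.94 ± 0.56 and 0.94 ± 0.60, towards 0. These differences of differences were not tested, because the genes were chosen for this pattern.

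Set in order of their means, the groups ran from Bowman W2.0, the lowest, through mnd1.a W3.5 and mnd1.a W2.0 up to Bowman W5.0, the highest, for both genes. Between these ends mnd1.a W5.0 and Bowman W3.5 stood close together, at 5.46 and 5.19 CPM for SOC1-1 and 6.68 and 7.37 CPM for FPF1, and their libraries overlapped. Neighbours in the order whose libraries did not overlap were mnd1.a W3.5 and mnd1.a W2.0 for both genes, mnd1.a W5.0 and Bowman W5.0 for SOC1-1, and mnd1.a W2.0 and mnd1.a W5.0 for FPF1. In each of the first 2 pairs 16.3% of the tested genes lay apart in the same direction. For mnd1.a W2.0 and mnd1.a W5.0 that share was not counted. The lowest pair, Bowman W2.0 and mnd1.a W3.5, overlapped for both.

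The mean balance of the 2 transcripts varied between groups, which was not tested. In Bowman at W2.0 it rests on 8.42 to 16.9 counts of FPF1 and 15.6 to 19.3 counts of SOC1-1, where counting error is large. The log2 CPM of FPF1 minus that of SOC1-1, in which transcript length cancels between groups, averaged -0.44 ± 0.50 (SD, n = 3) in Bowman at W2.0 and 0.67 ± 0.34 (n = 3) in mnd1.a at W2.0. It averaged 0.53 ± 0.22 (n = 4) and 0.08 ± 0.40 (n = 3) in Bowman and mnd1.a at W3.5, and 0.64 ± 0.28 (n = 4) and 0.30 ± 0.54 (n = 4) at W5.0. The 2 lines did not overlap in this difference at W2.0 or at W3.5, where mnd1.a was the higher and the lower line respectively, and they overlapped at W5.0. The gap at W3.5 was narrow, with mnd1.a at most 0.319 and Bowman at least 0.342. These values come from the counts that chose the genes, and how often other pairs of genes lie apart in this way was not counted.

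The libraries differ in how far their whole transcriptome had moved along the main axis of variation, the first principal component of log2 CPM, which held 37.6% of the variance. Libraries of W2.0 scored from -114 to -76.0 on it. The Bowman W3.5 libraries scored -10.8, 62.4, 17.5 and 105 in the order 1 to 4, which is the order of their SOC1-1 and FPF1 levels. The mnd1.a W3.5 libraries scored from -13.1 to -1.23, near Bowman library 1. At W5.0 mnd1.a scored from 12.81 to 36.99 and Bowman 31.4, 120, 73.2 and 121. Over the 21 libraries log2 CPM of SOC1-1 followed this score with Pearson r = 0.865 and FPF1 with r = 0.838, and with r = 0.784 and 0.718 after the group means were removed. These correlations describe libraries that share stage and line, and the part of this axis in the line differences was not tested.

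**Figure D2:**
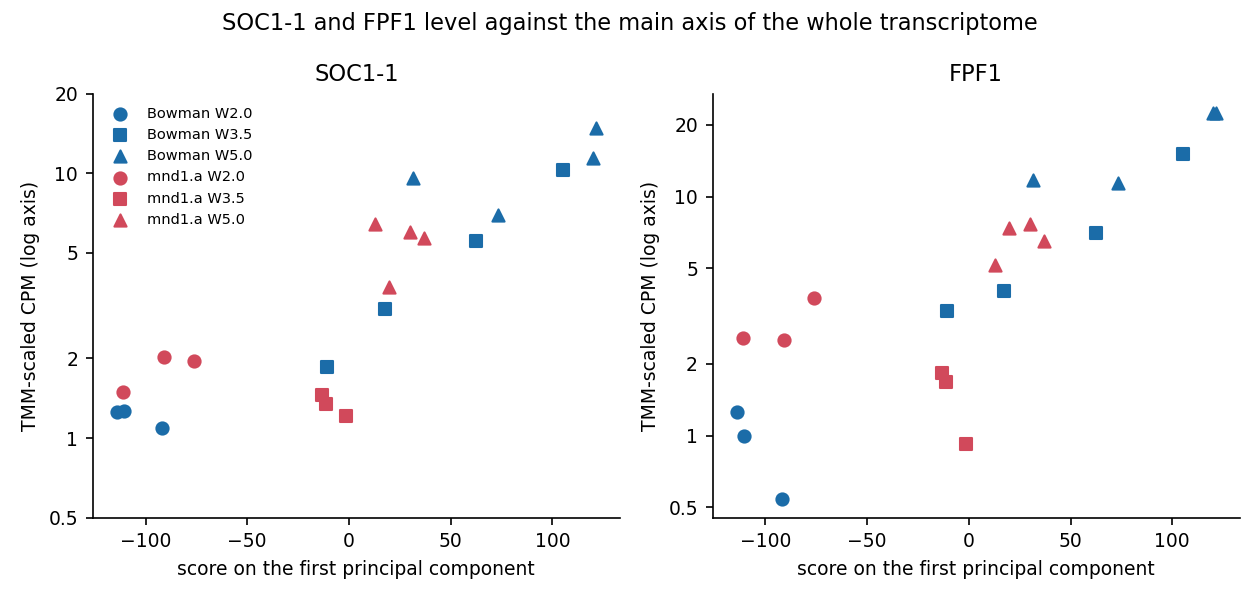
SOC1-1 and FPF1 level (vertical log axis, TMM-scaled CPM) against the library's score on the first principal component of the transcriptome (horizontal axis, no unit), with colour for line and symbol for stage; each point is 1 of 21 libraries. The Bowman W3.5 squares run from the mnd1.a W3.5 squares, near a score of 0, up to the Bowman W5.0 triangles, while at W2.0 the mnd1.a circles lie above the Bowman circles.

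Marker lists for other tissues moved with some of these comparisons. Transcripts of green leaf tissue (photosystem, chlorophyll-binding and related genes, 89 listed) summed to 286 to 497 CPM in Bowman and 852 to 1510 CPM in mnd1.a at W2.0. There 31 of 76 tested members were called higher in mnd1.a, 40.8% against 0.79% of all tested genes. The green leaf ranges overlapped at W3.5, at 1390 to 1900 and 1240 to 1870 CPM, and none of the 76 was called there. At W5.0 10 of the 76 were called higher and 8 lower, 23.7% against 30.2% of all tested genes. Class B, C and D MADS-box transcripts of stamen, lodicule and carpel primordia (8 listed) summed to 10.7 to 60.8 CPM in Bowman and 3.06 to 8.67 CPM in mnd1.a at W3.5. There 4 of 7 tested members were called lower, 57.1% against 3.91% of all tested genes. At W5.0 they summed to 64.0 to 139 and 62.6 to 84.7 CPM, and none was called. None was called at W2.0 either, where the sums overlapped, at 2.59 to 5.79 CPM in Bowman and 4.47, 4.68 and 17.2 CPM in mnd1.a. The median log2 fold change of the 7 tested floral genes was 2.2 at W2.0 (5 positive, 2 negative) and -2.3 at W3.5 (1 positive, 6 negative). Meristem transcripts of the KNOX class (9 listed) summed to 146 to 205 CPM in Bowman and 220 to 233 CPM in mnd1.a at W2.0, and overlapped at W3.5 (232 to 362 against 220 to 300 CPM) and W5.0 (251 to 335 against 258 to 286 CPM). None of the 8 tested KNOX genes was called at W2.0 or W3.5. At W5.0 2 were called higher, 25.0% against 30.2% of all tested genes. The meristem and floral markers were detected in every group, with 1 of the 8 floral genes at 0 in Bowman at W2.0. Vascular and secondary wall transcripts (48 listed) reached 741 to 873 CPM in mnd1.a and 529 to 793 CPM in Bowman at W5.0, with 13 of 43 tested members called higher in mnd1.a. These ranges overlapped, and the called share was 30.2%, the same as the 30.2% of all tested genes at that stage. The part of tissue make-up in the SOC1-1 and FPF1 values was not tested.

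MND1 (HORVU7Hr1G113480), the gene named by the mutant allele, was lower in mnd1.a at all stages. Its log2 fold change was -1.40 ± 0.38 at W2.0 (edgeR adjusted p = 0.115), -2.38 ± 0.38 at W3.5 (adjusted p = 0.00141) and -1.33 ± 0.33 at W5.0 (adjusted p = 0.00653). The W2.0 value passed with DESeq2 (adjusted p = 0.0171). Over all libraries its log2 CPM correlated with SOC1-1 at r = 0.282 and with FPF1 at r = 0.195. Within Bowman at W3.5 MND1 stood at 14.4, 24.1, 15.9 and 30.6 CPM in libraries 1 to 4, the same order as SOC1-1 and FPF1.

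The table holds 2 further genes annotated as flowering promoting factor 1. HORVU2Hr1G007490 lies 307044 bases from FPF1 on chromosome 2H and is the next tested gene there. It measured 3.59, 4.56 and 11.7 CPM in Bowman and 12.8, 18.4 and 14.1 CPM in mnd1.a at W2.0, and 11.1, 10.5, 6.94 and 11.8 CPM in Bowman against 18.7, 19.3 and 27.5 CPM in mnd1.a at W3.5. Its mnd1.a libraries thus lay above its Bowman libraries at W3.5, where FPF1 lay below. The share of all tested genes with every mnd1.a library above at W3.5 was not counted. The log2 fold change of HORVU2Hr1G007490 was 1.18 ± 0.35 at W2.0 and 1.13 ± 0.32 at W3.5, and neither passed edgeR's threshold (adjusted p = 0.171 and 0.0521). With DESeq2 and with limma-voom the W3.5 value passed, at adjusted p = 0.0133 and 0.0261. It also passed at W3.5 without Bowman library 1 (adjusted p = 0.0419) and at W2.0 without Bowman library 3 (adjusted p = 0.00787). At W5.0 the lines overlapped, at 9.23 to 16.9 CPM in Bowman and 9.31 to 15.1 CPM in mnd1.a, with a log2 fold change of -0.15 ± 0.30 (adjusted p = 0.742). Its log2 CPM correlated with FPF1 at r = 0.224 over the 21 libraries. The remaining gene, HORVU3Hr1G097810 on chromosome 3H, had group means from 0 to 0.508 CPM and did not pass the filter.

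**Figure D3:**
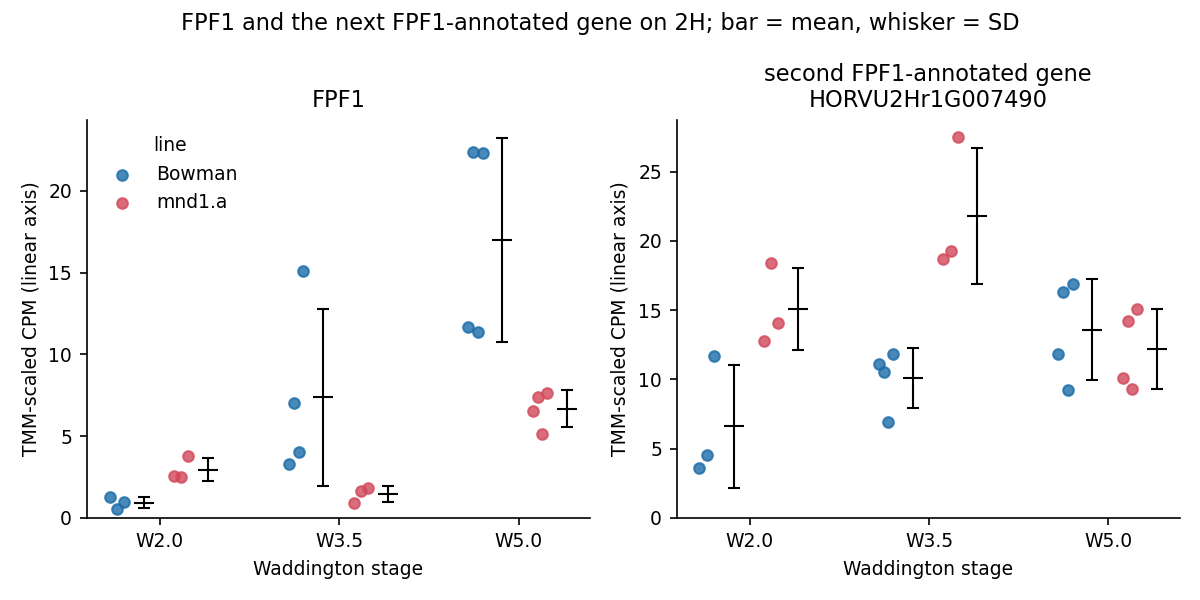
Level (vertical axis, TMM-scaled CPM) of FPF1 and of HORVU2Hr1G007490, the next gene on 2H with the same annotation, in each library by Waddington stage; Bowman is blue, mnd1.a red, bars are means and whiskers the SD. At W3.5 the mnd1.a points lie below the Bowman points for FPF1 and above them for HORVU2Hr1G007490, whose lines overlap at W5.0.

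Of the 8 tested genes that flank SOC1-1 and FPF1, 2 on each side and HORVU2Hr1G007490 included, 1 was called in 1 comparison. It was a peroxidase gene (HORVU1Hr1G051740), higher in mnd1.a at W5.0. Its log2 fold change was 2.32 ± 0.70, with an edgeR adjusted p = 0.0189. Among all tested genes 30.2% were called at that stage, against 1 of these 8. The nearest tested gene before SOC1-1, a ubiquitin-conjugating enzyme gene (HORVU1Hr1G051610), differed between the lines by 0.06 ± 0.08, -0.09 ± 0.07 and 0.05 ± 0.07 (log2) from the earliest stage to the latest.

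Lists of genes that act in the control of flowering held 99 genes besides SOC1-1 and FPF1, of which 88 were tested. At W2.0 1 of the 88 was higher in mnd1.a and none lower, which is 1.14% of them against 0.79% of all tested genes. At W3.5 3 were higher and 4 lower, 7.95% against 3.91%, and at W5.0 13 were higher and 17 lower, 34.1% against 30.2%. The median log2 fold change over the 88 was 0.14, -0.10 and -0.10 at the 3 stages, beside medians of -0.01 over all tested genes. The count of 7 at W3.5 ranged from 4 to 19 when 1 library was left out: it was 19 without Bowman library 1, 11 without mnd1.a library 3 and 4 without mnd1.a library 1 or 2.

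Of the genes downstream, the LEAFY homologue (HORVU2Hr1G102590), which in Arabidopsis is a target of SOC1 and confers floral identity on meristems, was lower in mnd1.a than in Bowman at W3.5. It averaged 5.42 ± 0.87 CPM in the mutant (SD, n = 3) and 23.1 ± 14.6 CPM in Bowman (n = 4), a log2 difference of -2.07 ± 0.36 with an edgeR adjusted p = 0.00338. Its differences at W2.0 (-0.97 ± 0.39, adjusted p = 0.418) and W5.0 (-0.66 ± 0.31, adjusted p = 0.115) did not pass, though with only the groups compared the W5.0 value did (adjusted p = 0.0154). LEAFY thus stood below Bowman at W2.0, where SOC1-1 and FPF1 stood above.

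The 5 AP1/FUL-type MADS-box genes mark the identity of inflorescence and floral meristems. At W2.0 none of the 5 was called. At W3.5 1 of them, a MADS-box transcription factor 14 gene (HORVU5Hr1G095630), was lower in mnd1.a, at 138 ± 10.2 (n = 3) against 271 ± 58.6 CPM (n = 4), a difference of -0.97 ± 0.18 in log2 with an adjusted p = 0.00452 from edgeR. It was also lower at W5.0, by -0.80 ± 0.16 (adjusted p = 0.00144). That is 1 called gene of 5 at each of these stages. Of all tested genes, 3.91% were called at W3.5 and 30.2% at W5.0. A MADS-box transcription factor 15 gene (HORVU2Hr1G063800) had the larger difference at W3.5, -2.06 ± 0.58, which missed the threshold (adjusted p = 0.0577), with mnd1.a libraries at 18.2 ± 16.7 CPM (SD, n = 3); DESeq2 and limma-voom called it (adjusted p = 0.0215 and 0.0185). The remaining 3 stood at -0.91, -0.74 and -0.47 at W3.5 and at -1.58, 0.13 and -0.14 at W5.0, none of them called by edgeR. The gene at -1.58 (HORVU1Hr1G047560, adjusted p = 0.0561) was called with DESeq2, limma-voom and only the groups compared (adjusted p = 0.0469, 0.0276 and 0.0292). At W5.0 HORVU2Hr1G063800, at -0.90 ± 0.49, was not called (adjusted p = 0.181) except with only the groups compared (adjusted p = 0.000301). With the fit restricted to the groups compared, the W3.5 calls of LEAFY and of HORVU5Hr1G095630 were lost, at adjusted p = 0.167 and 0.0795. Without Bowman libraries 2 and 4 that of HORVU5Hr1G095630 was lost as well (adjusted p = 0.0533).

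Of the repressors, the 3 SVP-type MADS-box genes (annotated MADS-box transcription factor 22, 47 and 55), of a family that holds back flowering in Arabidopsis, were not called at any stage, with log2 fold changes from -0.21 ± 0.66 to 0.83 ± 0.32. The factor 55 gene (HORVU7Hr1G036130), at 0.83 and adjusted p = 0.0591 at W5.0, passed there with DESeq2 (adjusted p = 0.0414) and limma-voom (adjusted p = 0.0311). TERMINAL FLOWER 1 proteins, relatives of FLOWERING LOCUS T that keep meristems indeterminate in Arabidopsis, belong to a family with 3 tested genes here. None of the 3 was called at W2.0, 1 (W3.5) and then 2 (W5.0) were higher in mnd1.a (33.3% and 66.7%, against 3.91% and 30.2% of all tested genes), and the remaining gene had a negative log2 fold change at each stage and was not called. At W5.0 HORVU4Hr1G078770 averaged 16.5 ± 6.31 CPM in the mutant line and 0.223 ± 0.077 CPM in the wild type (SD, n = 4 in both), giving a log2 difference of 6.16 ± 0.57 by edgeR (adjusted p = 5.67e-07). Its Bowman libraries held 0.128 to 0.317 CPM there, near the 0.129 to 0.253 CPM that 3 counts give. The size of that difference is thus a ratio to a level near the floor. At W3.5 its log2 fold change was 2.16 ± 0.58 (adjusted p = 0.0448), a call that was lost without any 1 of the libraries except Bowman library 1, at adjusted p from 0.0506 to 0.154, and with limma-voom (adjusted p = 0.151). HORVU2Hr1G072750 was higher in mnd1.a at W5.0 by 3.94 ± 0.53 (adjusted p = 7.37e-05) and stood at 1.75 ± 0.49 at W3.5 (adjusted p = 0.0556), where DESeq2 and limma-voom called it (adjusted p = 0.0241 and 0.0143).

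**Figure D4:**
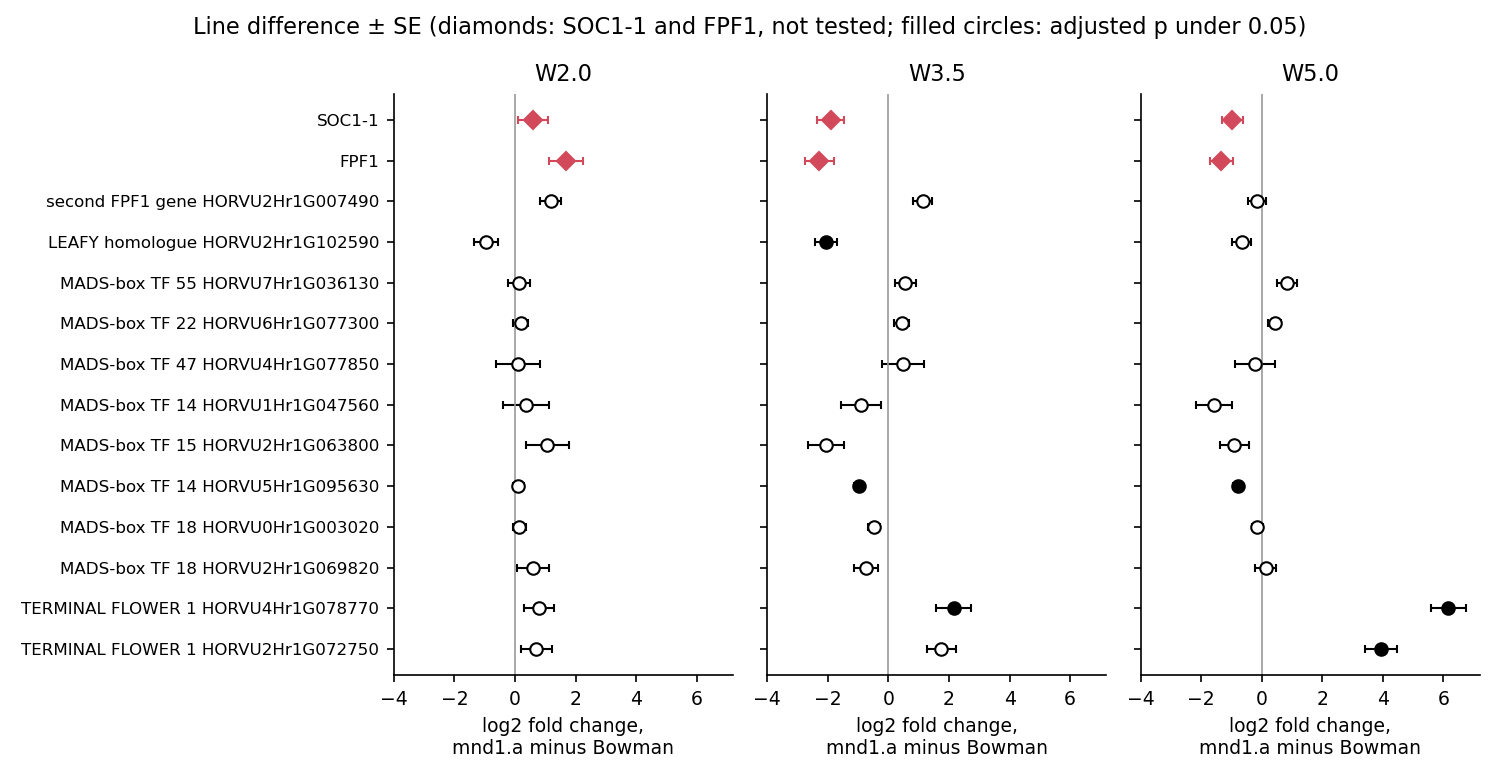
Log2 fold change of mnd1.a minus Bowman (horizontal axis, whiskers ± SE) in 1 panel per stage for SOC1-1 and FPF1 (red diamonds, not tested) and for FPF1-annotated, LEAFY, SVP-type, AP1/FUL-type and called TERMINAL FLOWER 1 genes (circles, filled at an adjusted p under 0.05). The diamonds lie right of 0 at W2.0 and left of 0 at W3.5 and W5.0, while the TERMINAL FLOWER 1 genes lie right of 0, up to 6.16 at W5.0 for a gene near the floor in Bowman.

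Genes upstream in the day-length and age pathways held 1 gene that was called in opposite directions at different stages. Of the CONSTANS-like and B-box genes (19 tested), relatives of the day-length factor CONSTANS, 1 was higher at W2.0, 5.26% against 0.79% of all tested genes. None was called at W3.5, and at W5.0 1 was higher and 5 lower, 31.6% against 30.2% of all tested genes. HORVU4Hr1G007420, a CONSTANS-like gene, was higher in mnd1.a at W2.0 by 1.61 ± 0.30 (edgeR adjusted p = 0.0106) and lower at W5.0 by -1.54 ± 0.22 (adjusted p = 8.41e-05). Its W2.0 call was lost without Bowman library 2 or 3 or mnd1.a library 3, at adjusted p = 0.0643, 0.0632 and 0.0877, and with limma-voom (adjusted p = 0.112) or only the groups compared (adjusted p = 0.062). At W3.5 it stood at -0.38 ± 0.24 (adjusted p = 0.371). Squamosa promoter-binding-like factors, which act in the age pathway (17 tested), had 2 lower members at W3.5 and none higher, and 4 higher and 6 lower at W5.0 (11.8% and 58.8%, against 3.91% and 30.2% of all tested genes). The more abundant of these, HORVU0Hr1G020810, was lower by -1.03 ± 0.19 at W3.5 (adjusted p = 0.00453) and by -0.79 ± 0.17 at W5.0 (adjusted p = 0.00243). Its W3.5 call was lost without Bowman libraries 2 and 4 (adjusted p = 0.0638) and with only the groups compared (adjusted p = 0.134). At W2.0 HORVU0Hr1G020810 already stood at -0.87 ± 0.20, which missed edgeR's threshold (adjusted p = 0.0509). It passed there with DESeq2 (adjusted p = 0.00489), RLE size factors (adjusted p = 0.0496) and without mnd1.a library 3 (adjusted p = 0.0413).

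Gibberellin genes were listed because FPF1 has been linked to that hormone, and none was called at W2.0. Of 8 tested genes of gibberellin synthesis and inactivation, 1 was called higher at W3.5 (12.5%, against 3.91% of all tested genes). It was a gibberellin 2-oxidase 6 gene (HORVU1Hr1G023460) at 0.76 ± 0.20 (edgeR adjusted p = 0.0435). That call was lost without any 1 of the libraries except Bowman library 1 and mnd1.a library 3, at adjusted p from 0.0575 to 0.234. The other 7 had negative log2 fold changes at W3.5, none of them called, and the median of the list was -0.75. Of 14 tested receptor and response genes, 1 was higher at W3.5 (7.14%, against 3.91% of all tested genes) and 5 were higher and 1 lower at W5.0 (42.9%, against 30.2%). A GID1 gibberellin receptor gene (HORVU7Hr1G057260) was higher in mnd1.a than in Bowman at both, by 1.32 ± 0.20 (adjusted p = 0.000651) and 1.05 ± 0.18 (adjusted p = 0.00043). Of the other MADS-box genes as a family (34 tested besides SOC1-1), 1 was lower and none higher at W2.0, 11 lower and none higher at W3.5, and 6 lower and none higher at W5.0. These are 2.94%, 32.4% and 17.6% of the family, against 0.79%, 3.91% and 30.2% of all tested genes. The family takes in the SVP-type, AP1/FUL-type and floral marker MADS-box genes given above, so these counts repeat some of their calls. The median of this family at W3.5 was -0.98, and SOC1-1 stood below it at -1.91.

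The genes whose profile over the 21 libraries was most like that of each transcript were taken by Pearson r of log2 CPM among 18433 other genes with a mean of at least 1 CPM. FPF1 had SOC1-1 as its closest gene, with r = 0.952, and SOC1-1 had FPF1 in rank 7. By Spearman's rho, 0.971, each ranked first for the other. With the group means removed their r was 0.774, which put FPF1 in rank 145 for SOC1-1. For SOC1-1 percentiles 5 and 95 of r over these genes were -0.81 and 0.80, so high values of r are common in these libraries.

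Closest to SOC1-1 were genes annotated as transcription elongation factor Spt5 (HORVU6Hr1G079550, r = 0.972), histidine kinase 3 (HORVU6Hr1G077070, r = 0.970), a MATE efflux protein (HORVU5Hr1G118820, r = 0.966), receptor-like protein kinase 2 (HORVU3Hr1G093530, r = 0.961) and MADS-box transcription factor 32 (HORVU3Hr1G068900, r = 0.961). After SOC1-1, FPF1 was closest to the MATE efflux gene (r = 0.947), the Spt5 gene (r = 0.943), a cytochrome P450 gene (HORVU5Hr1G081060, r = 0.943) and a flavin-containing monooxygenase gene (HORVU5Hr1G086660, r = 0.942). The MADS-box transcription factor 32 gene ran from 22.4 to 76.7 to 158 CPM over the stages in Bowman and from 28.1 to 27.1 to 88.0 CPM in mnd1.a. The flavin-containing monooxygenase gene ran from 0.641 to 6.53 to 14.9 CPM in Bowman and from 1.10 to 0.955 to 5.86 CPM in mnd1.a. Both were near their W2.0 level at W3.5 in mnd1.a and above it in Bowman. As both were chosen by r over these same libraries, a course like that of SOC1-1 or FPF1 follows from the choice.

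The genes most unlike SOC1-1 were an unannotated gene (HORVU3Hr1G078930, r = -0.958), laccase 6 (HORVU7Hr1G105620, r = -0.948) and glutaredoxin 4 (HORVU3Hr1G023970, r = -0.948). Those most unlike FPF1 were importin-7 (HORVU2Hr1G066910, r = -0.935), 40S ribosomal protein S11 (HORVU6Hr1G056610, r = -0.929) and translation initiation factor 4G (HORVU2Hr1G086240, r = -0.925). The choice of close genes depended on the measure: of the 5 closest to SOC1-1, Spearman's rho, the correlation of group means and the correlation within groups each shared 1, and of the 5 closest to FPF1 they shared 2, 1 and 0.

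**Figure D5:**
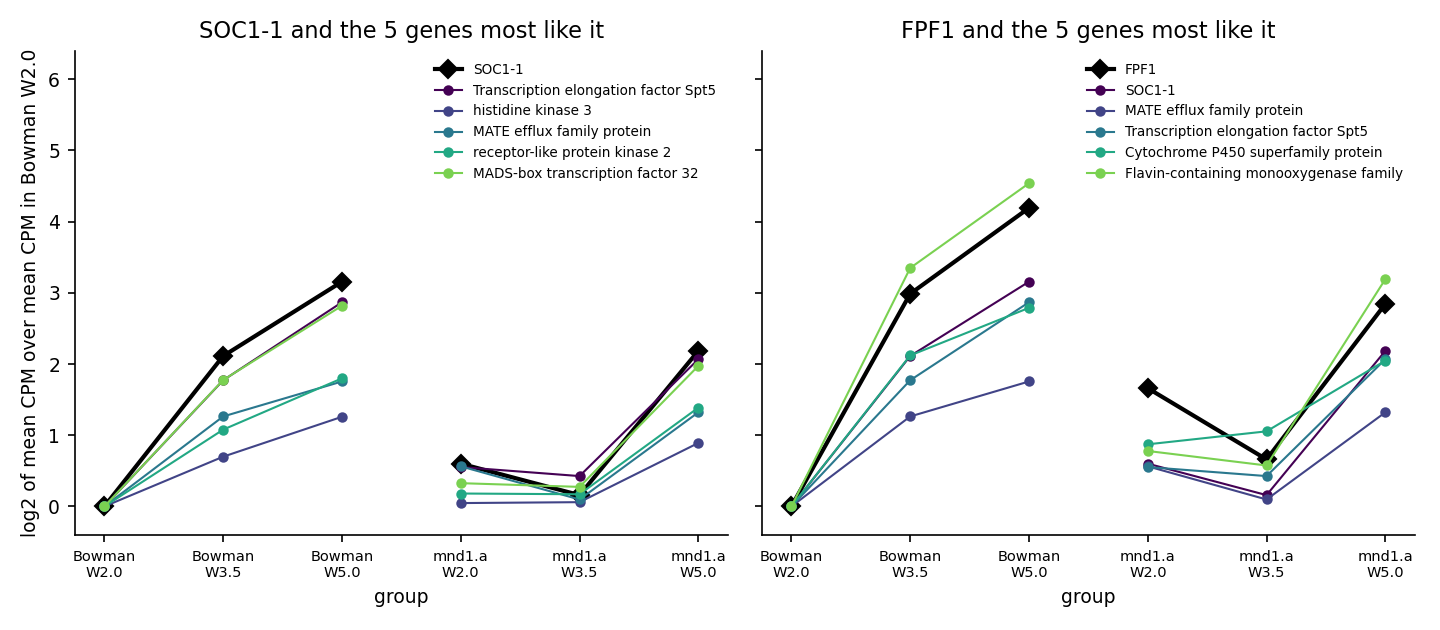
Mean level of SOC1-1 and FPF1 (black) and of the 5 genes most like each (colours) in the 6 groups, as log2 of the ratio to the gene's own mean in Bowman W2.0 (vertical axis). The genes in colour were chosen by r over these same libraries, so a like course follows from the choice. In Bowman all lines climb from stage to stage; in mnd1.a the points at W3.5 lie near or below those at W2.0, those at W5.0 lie above both, and FPF1 starts highest of its panel in mnd1.a at W2.0.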

How the data were processed

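The 21 inflorescence libraries with a count column were used, in 6 groups of line and stage; the shoot apex sample of cultivar Mesa was not analysed here. The authors deposited estimated counts per transcript made with Salmon, per the file headers, and 94.8% of the values were not whole (tolerance 1e-06). GATK, limma and BWA 0.7.15 stand in the submitters' processing notes with no role given. The build name and whether counting used strand are not given in the sources used here, and positions are printed as the deposited table gives them. The column headers call the middle stage W3.0; across genes, a refit of these columns had r = 0.912 with the log2 fold changes that the authors deposited for W3.5 and at most 0.499 with those of other stages, so the columns were taken as W3.5. Another 21 columns hold log2 values per sample by the authors and were left aside. Library numbers come from the column headers and only name a library. Totals ran from 11436651 to 21596190 estimated counts per library, and 3 counts, taken as the floor, correspond to 0.129 to 0.253 CPM, for counting error only.

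Counts were rounded and genes filtered with filterByExpr (minimum count 10, minimum total 15), which kept 21132 of 24318. Libraries were scaled by TMM (factors 0.902 to 1.08). edgeR 4.0.16 (R 4.3.3, robust quasi-likelihood) fitted 1 model with 6 group means to the 21 libraries, and a gene is called at a Benjamini-Hochberg adjusted p under 0.05 over all tested genes. The standard error is the log2 fold change divided by the root of F. Log2 CPM used a prior count of 0.25. The steps were tested on simulated data. Alternatives were DESeq2 1.42.0, limma 3.58.1 (voom), other size factors, no filter, only the groups compared, libraries left out, a stricter threshold and the authors' deposited fold changes and FDR values. Both genes, the 13 flowering lists (word patterns on the annotation) and the 4 marker lists were chosen with earlier results of these data known; after the annotations were read, 2 lists received an exclusion for wrong matches. The rule for named genes took MND1, the genes of the FPF1, LEAFY, SVP-type and AP1/FUL-type lists, up to 3 called genes per stage with the largest change in each other list, the 5 genes most like and the 3 most unlike each transcript, and the 2 tested genes on each side of it; some of these stand in the text only in counts. The SOC1-type list matched SOC1-1 alone, and the list of AP2-type repressors matched no gene.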

Additional observations from a re-analysis of the deposited data

Results flagged for a closer look

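In 3 sets of 4 libraries the highest or lowest library lay apart from the other ones by Dixon's ratio, the gap to the nearest library over the whole range, which passed its 95% critical value for 4 samples. MND1 in mnd1.a at W5.0 had a ratio of 0.968, with library 2 at 2.39 CPM below 5.90 to 6.02 CPM in the other libraries. The summed green leaf markers in Bowman at W3.5 had a ratio of 0.863, with library 3 at 1900 CPM and the other libraries at 1390 to 1460. The summed vascular markers in mnd1.a at W5.0 had a ratio of 0.965, with library 1 at 741 CPM and the other libraries at 868 to 873. Of 24 sets examined, chance flags about 1 in 20. SOC1-1 and FPF1 themselves were not flagged in this way.

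The line difference of both genes had opposite signs at W2.0 and at the later stages, with every mnd1.a library above every Bowman library at W2.0 and below at W3.5 and W5.0. The line difference of SOC1-1 changed by -2.52 on the log2 scale from W2.0 to W3.5 and by -1.57 from W2.0 to W5.0. That of FPF1 changed by -3.96 and -3.01. The difference between stages was not tested.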

How the results depend on the processing

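The fitted line and stage differences of SOC1-1 and FPF1 kept their sign under every alternative run. For the line differences, whose libraries did not overlap, leaving out libraries could hardly have changed the sign. Line differences ran over the alternatives from 0.53 to 0.73 (W2.0), -2.19 to -0.88 (W3.5) and -1.13 to -0.77 (W5.0) for SOC1-1, and from 1.40 to 1.93, -2.52 to -1.31 and -1.49 to -1.18 for FPF1. The authors' deposited table gives log2 fold changes of 0.62, -1.53 and -0.94 for SOC1-1 and 1.72, -1.95 and -1.27 for FPF1. Without Bowman W3.5 libraries 2 and 4, SOC1-1 moved to -0.88 for the line difference at W3.5, 1.04 from W2.0 to W3.5 and 2.11 from W3.5 to W5.0 in Bowman, and FPF1 to -1.31, 1.98 and 2.21.

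Counts of called genes moved more. The 167 at W2.0 became 325 with DESeq2, 71 at a stricter threshold (adjusted p under 0.01 and a change of 2-fold or more), 262 in the authors' deposited table and 89 to 130 without 1 library (89 without mnd1.a library 3, 108 without mnd1.a library 1, 111 without Bowman library 1). The 826 at W3.5 became 1487 with DESeq2, 94 with only the groups compared, 164 at the stricter threshold, 344 without Bowman libraries 2 and 4, and 265 to 2273 without 1 library (Bowman 1, 2273; 2, 481; 4, 512; mnd1.a 1, 303; 2, 265; 3, 1350). The 6381 at W5.0 became 895 at the stricter threshold and 4570 to 6919 without 1 library. Of the flowering lists, the 1 called gene at W2.0 became 3 with DESeq2, 2 with RLE size factors, 0 with limma-voom, with only the groups compared, at the stricter threshold and in the authors' deposited table, and 0 to 1 without 1 library (0 without Bowman library 2). The 7 at W3.5 became 14 with DESeq2, 2 without Bowman libraries 2 and 4, 1 with only the groups compared, 3 at the stricter threshold and 4 to 19 without 1 library. The 30 at W5.0 became 7 at the stricter threshold and 18 to 30 without 1 library (18 without mnd1.a library 2). Over the other named genes 953 values stayed on their side of the threshold, 54 lost a call and 28 gained one, and none of the called values changed sign; the cause was not tested.

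No paired analysis was possible because the labels give no replicate numbers, and those of the columns only name a library. The W2.0 values rest on 8.42 to 61.7 counts.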
